A study of Mus musculus with 14 samples.

Results

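The ungrafted time course of SOX9 induction in epidermal stem cells (EpdSCs) was described as 1 ordered trend from D0 through W1 and W2 to W6. It comprises 8 of the 14 RNA-seq libraries of the series, and it was chosen by timepoint, not by any measured value. The time course holds 10 libraries in all, and its last timepoint, W12, was left out of the trend because those cells came from grafted skin. At each of D0, W1, W2 and W6 there were 2 replicates, which the labels call biological. All 8 libraries were made from back skin of CD1 mice, labelled male, that carried K14rtTA and TRE-myc-Sox9. In these mice the *Krt14* promoter drives a doxycycline (DOX)-dependent activator in basal keratinocytes, and DOX then switches on a MYC-tagged *Sox9* transgene. DOX was injected at postnatal day 21 and given in the feed thereafter, so that the D0 mice were 21, the W1 mice 28, the W2 mice 35 and the W6 mice 63 days old. Age and time on DOX therefore rose together and cannot be told apart, and RNA from mice without the *Sox9* transgene was not analysed here. EpdSCs were sorted as cells negative for CD31, CD45, CD117 and CD140a, high for CD49f, negative for CD34 and high for Ly6A.

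EpdSCs lie in the basal layer of the interfollicular epidermis, where they attach to the basement membrane, divide, and give rise to the suprabasal layers that end in the cornified envelope. SOX9 is a transcription factor of the hair follicle, present in the outer root sheath and in hair follicle stem cells and absent from healthy interfollicular epidermis. It is known as a pioneer factor, able to bind its sites in closed chromatin, and is abundant in basal cell carcinoma.

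The values are in TPM, a share of all transcripts scaled to the same total in each library and corrected for transcript length. They keep no trace of sequencing depth, for which reason no counting error is given. A trend was fitted with limma to log2(TPM + 1), with D0, W1, W2 and W6 coded 0, 1, 2 and 3. The slope is the log2 change per timepoint, and the fitted change is 3 slopes, the distance from D0 to W6 along the line. A gene was said to rise or fall at an adjusted p under 0.05 (Benjamini-Hochberg over all genes tested). The p-values of the slope measure the spread of these 8 libraries about the fitted line. A bend in the timepoint means counts as spread.

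Before the trend is described, D0 replicate 2 has to be set apart. It listed *Xist*, the RNA of the inactive X chromosome, at 4.61 TPM, and the Y-linked *Ddx3y*, *Eif2s3y*, *Kdm5d* and *Uty* at no more than 0.038 TPM, although its label says male. The other 7 libraries listed *Xist* at 0.0067 TPM or less and *Ddx3y* at 21.9 to 32.7 TPM. D0 replicate 2 also carried the highest summed level of immediate-early genes, which respond within minutes to stress and to tissue dissociation, at 68653 TPM against 41694 TPM in D0 replicate 1 and 8005 to 17198 TPM in the later 6 libraries. Results are therefore given with and without this library.

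*Krt14* and *Krt5*, the keratin pair of basal cells, were listed at 19997 to 31097 and 8227 to 14774 TPM. *Pecam1* (CD31), *Ptprc* (CD45), *Kit* (CD117) and *Pdgfra* (CD140a) stayed at or under 1.14 TPM in all 8 libraries. *Cd34*, which the sort selects against, was at 0.383 TPM or less up to W2 and at 2.66 and 5.04 TPM at W6. The summed level of 10 fibroblast markers was 0.585 to 4.30 TPM in 7 libraries and 53.2 TPM in W6 replicate 2. Only 1 of these 10 averaged 1 TPM or more, and in W6 replicate 2 it was 4.36 above its D0 mean in log2(TPM + 1). *Col1a1* and *Pdgfra* were at 0.143 and 0.161 TPM in that library. That of 10 endothelial markers was 1.34 to 6.73 TPM and that of 15 immune markers 14.2 to 59.03 TPM. Of 10 melanocyte and mast cell markers 2 were at 0 in all 8 libraries, and the sum was 2.03 to 12.9 TPM. Taken here as markers of EpdSCs were 6 genes, of which *Itga6* (CD49f) and *Ly6a* belong to the sort. Of these 6, 4 fell (*Krt15*, *Ly6a*, *Itga6* and *Krt5*), where 6.89% of all genes fell. With D0 replicate 2 left out 0 fell in limma (adjusted p = 0.0527 to 0.103 for the 4, and 5 of the 6 at an unadjusted p under 0.05). The marker *Ly6a* used for the sort was lower at W2 and W6 (268 to 421 TPM) than in the D0 and W1 libraries (532 to 756 TPM).

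Of 54332 genes in the table, 12860 averaged 1 TPM or more across the 8 libraries and entered the test. Of these, 1071 rose (8.33%) and 886 fell (6.89%), while 4199 passed an unadjusted p of 0.05. The median fitted change of the rising genes was 1.39 and that of the falling genes −1.39 on the log2 scale, against a median fitted change of 0.05 over all genes. In 777 rising and 692 falling genes the fitted change was at least 1. The slope test favours genes that moved at every step, so the steps of the called genes are given as a description. The median step of the rising genes was 0.40 from D0 to W1, 0.32 from W1 to W2 and 0.54 from W2 to W6, the last of which spans 4 weeks. For the falling genes these steps were −0.48, −0.30 and −0.54. The largest step was D0 to W1, W1 to W2 and W2 to W6 in 34.2%, 18.8% and 47.1% of the rising genes. In the falling genes these shares were 39.2%, 18.3% and 42.6%, and over all genes tested 31.6%, 24.4% and 43.9%.

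How steadily these genes moved was read from the order of the values, which uses the same values as the slope and is given as a description. The 4 timepoint means were in rising order in 738 of the rising genes (5.74% of all genes tested) and in falling order in 597 of the falling genes (4.64%). All 8 libraries were in order, with no overlap between neighbouring timepoints, in 217 rising (1.69%) and 178 falling genes (1.38%). Without D0 replicate 2, 217 of the 1071 rising and 168 of the 886 falling genes were past the threshold, and leaving out W6 replicate 1 from the fit gave 301 rising and 271 falling genes in all. Their direction did not turn in any of the 8 fits that left out 1 library, and 191 rising and 147 falling genes were past the threshold in all 8. A p that misses the threshold does not show that a gene stayed level, and the 95% confidence interval of the fitted change lay within −0.5 and 0.5 in 433 genes.

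The transgene did not itself follow a trend. MYC-SOX9 was listed at 89.6 and 45.6 TPM in the D0 libraries, 3387 and 3414 in W1, 1892 and 1469 in W2, and 1108 and 859 in W6. It was highest in both W1 libraries and lower at W2 and at W6, with no overlap between timepoints. The D0 to W6 slope (fitted change 3.21 ± 1.62, adjusted p = 0.204 by limma) missed the threshold and the departure from a straight trend passed it (adjusted p = 0.00156). The steady genes described here were picked because their 8 libraries were in order. From W1 to W6 they moved on by that rule, while the RNA of the transgene was at successively lower values. The endogenous *Sox9* gene was listed at 11.5 and 9.47 TPM in the D0 libraries, 4.02 and 2.71 in W1, 11.4 and 9.68 in W2, and 9.88 and 13.6 in W6. Its values at W1 were the lowest, and D0, W2 and W6 overlapped (slope 0.18, adjusted p = 0.545). The transgene carries the *Sox9* coding sequence, so reads may have been split between MYC-SOX9 and *Sox9*. Their single values, the low W1 values of *Sox9* among them, are therefore uncertain. Of 8 tested genes of the SOX list, *Sox13* (slope 0.83, adjusted p = 0.00652) and *Sox15* (slope 0.51, adjusted p = 0.0192) rose and *Sox6* (slope −1.04, adjusted p = 0.0165) fell. The adjusted p without D0 replicate 2 was 0.0352 for *Sox13*, 0.0574 for *Sox15* and 0.0791 for *Sox6*.

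RUNX1, a partner of the hair follicle stem cell programme, is encoded by *Runx1*, which was listed at 6.98 and 8.04 TPM in the D0 libraries, 32.1 and 28.97 in W1, 73.99 and 53.8 in W2, and 42.5 and 54.05 in W6. Both D0 libraries were under all 6 later ones, and the W2 and W6 libraries overlapped (fitted change 2.58 ± 0.55, adjusted p = 0.0185 by limma, 0.0951 without D0 replicate 2). *Runx2* rose from low values, with a slope of 0.37 (adjusted p = 0.0345, 0.116 without D0 replicate 2). *Runx3* had a mean under 1 TPM and was not tested.

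The steepest risers with all 8 libraries in order were *Gpx2*, *Igfl3* and *Klk6*. The 250 bases before the RefSeq transcription start of each are shown, because SOX9 is known to bind DNA directly and these genes had the largest slopes among called genes whose 8 libraries were in order. The letters of 2 forms of the SOX motif, ACAAAG and ACAATG, are in capitals wherever either strand holds them (GRCm38.p6; *Gpx2* chr12:76795555-76795804, reverse strand; *Igfl3* chr7:18176244-18176493, forward strand; *Klk6* chr7:43824294-43824543, forward strand, 1 of its 2 windows).
Gpx2: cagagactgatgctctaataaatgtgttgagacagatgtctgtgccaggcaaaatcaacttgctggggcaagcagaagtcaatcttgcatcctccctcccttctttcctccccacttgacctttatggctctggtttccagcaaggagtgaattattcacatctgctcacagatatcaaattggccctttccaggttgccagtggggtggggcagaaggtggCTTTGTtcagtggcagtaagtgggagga
Igfl3: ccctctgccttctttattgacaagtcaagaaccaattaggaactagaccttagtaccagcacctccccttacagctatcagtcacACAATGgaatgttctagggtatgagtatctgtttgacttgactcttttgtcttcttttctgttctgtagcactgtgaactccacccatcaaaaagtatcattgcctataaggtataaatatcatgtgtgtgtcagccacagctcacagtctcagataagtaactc
Klk6: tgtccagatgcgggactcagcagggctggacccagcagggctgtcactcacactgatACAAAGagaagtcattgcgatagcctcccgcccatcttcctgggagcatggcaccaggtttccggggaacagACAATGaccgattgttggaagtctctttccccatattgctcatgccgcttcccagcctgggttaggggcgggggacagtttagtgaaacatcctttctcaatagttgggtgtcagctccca
In *Gpx2* the reverse complement CTTTGT begins 28 bases before the start. In *Igfl3* ACAATG begins 165 bases before it, and in *Klk6* ACAAAG and ACAATG begin 193 and 121 bases before it. Of the 30 steepest steady genes, 25 matched a RefSeq window, with 32 windows of 300 bases in all. ACAAAG was in 4 of these 32 (12.5%), against 18.7% of 32851 windows of the same length, and ACAATG in 2 of 32 (6.25%) against 12.6%. The RUNX letters TGTGGT were in 5 of 32 windows (15.6%, against 16.8%), and the AP-1 letters TGANTCA in 2 (6.25%, against 7.81%). The antioxidant response core TGACNNNGC was in 6.25% of the named windows (12.4% of all), the GATA letters AGATAA in 9.38% (11.2%), the E-box CACGTG in 3.12% (7.15%), CCAAT in 25.0% (37.4%), TATAAA in 3.12% (13.6%) and the E2F letters TTTCCCGC in 0 of 32 (1.07%). Every motif was searched on both strands, and the share in the named windows was below that of all windows for all 10. A match is only a match of letters, and binding was not measured here.

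*Gpx2* encodes a glutathione peroxidase of epithelia and a target of the antioxidant factor NRF2 (GRCm38, chr12:76792333-76795554, reverse strand). It was listed at 0.680 and 0.607 TPM in the D0 libraries, 38.2 and 39.2 in W1, 189.9 and 214 in W2, and 1349 and 231 in W6. The 2 libraries of each timepoint lay above both of the one before, although the W6 libraries differed widely from each other. The fitted change of *Gpx2* was 8.28 ± 0.91 (adjusted p = 0.00172 by limma), and its adjusted p without D0 replicate 2 was 0.0135. *Igfl3*, which encodes a secreted peptide of the IGF-like family (chr7:18176494-18181862, forward strand), was listed at 2.01 and 0.170 TPM in the D0 libraries, 11.8 and 5.97 in W1, 51.02 and 57.3 in W2, and 624 and 338 in W6. All 8 libraries were in order, and the departure from a straight line missed the threshold (adjusted p = 0.714, fitted change 7.91 ± 0.47, adjusted p = 0.000167, 0.002 without D0 replicate 2). *Klk6*, a secreted serine protease of the kallikrein family (chr7:43824499-43832030, forward strand), was listed at 1.21 and 0.453 TPM in the D0 libraries, 4.53 and 7.27 in W1, 11.8 and 19.5 in W2, and 337 and 103 in W6. Here the step from W2 to W6 was the largest (fitted change 6.42 ± 0.66, adjusted p = 0.00138, 0.011 without D0 replicate 2).

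**Figure D1:**
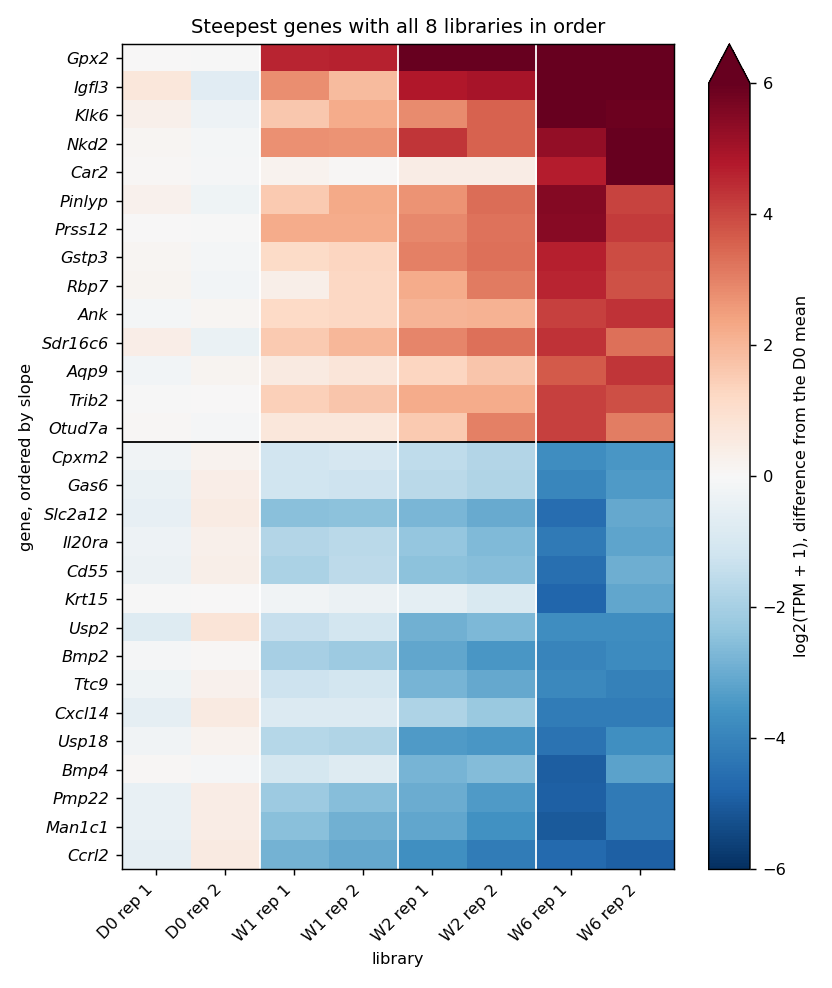
Each cell gives the log2(TPM + 1) of a gene in a library as the difference from the mean of the D0 libraries, for 14 rising (above the line) and 15 falling genes that are among the steepest of those whose 8 libraries were in order; the scale ends at 6 in both directions. Colour deepens from D0 to W6 in every row, and Car2 and Krt15 change mainly between W2 and W6.

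*Rbp7*, which encodes a cellular retinol-binding protein, and *Sdr16c6*, of a family of retinol and steroid dehydrogenases, were also among the steepest risers. *Rbp7* was listed at 0.583 and 0.239 TPM in the D0 libraries, 0.759 and 2.26 in W1, 5.57 and 11.2 in W2, and 32.7 and 18.7 in W6. Its fitted change was 4.35 ± 0.45 (adjusted p = 0.00138, 0.0103 without D0 replicate 2), and that of *Sdr16c6* was 3.85 ± 0.42 (0.00169, 0.0101). *Nkd2*, which encodes an inhibitor of Wnt signalling that binds Dishevelled, was listed at 0.403 and 0.206 TPM in the D0 libraries, 7.57 and 7.39 in W1, 24.7 and 14.1 in W2, and 49.9 and 114 in W6. It was near 0 at D0 and reached its highest values at W6 (fitted change 5.66 ± 0.45, adjusted p = 0.000434, 0.00393 without D0 replicate 2).

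The other steady risers included a glutathione transferase (*Gstp3*, fitted change 4.43 ± 0.30), a serine protease (*Prss12*, 4.61 ± 0.42), a pseudokinase (*Trib2*, 3.79 ± 0.30), a pyrophosphate transporter (*Ank*, 4.06 ± 0.31), an aquaporin that also carries glycerol (*Aqp9*, 3.85 ± 0.51), *Pinlyp* (4.65 ± 0.46), and *Otud7a*, a deubiquitinase (3.71 ± 0.48). Their adjusted p lay between 0.000184 and 0.00397 by limma, and between 0.00333 and 0.0195 without D0 replicate 2. *Car2*, a carbonic anhydrase, was listed at 0.108 and 0.0138 TPM in the D0 libraries, 0.213 and 0.131 in W1, 0.459 and 0.466 in W2, and 26.4 and 121 in W6. It met the ordering but was under 0.5 TPM in the first 6 libraries, so nearly all of its change fell between W2 and W6, and it departed from a straight trend (adjusted p = 0.0219). Its adjusted p of 0.0325 became 0.0837 without D0 replicate 2. *Gstp3* has close relatives among the glutathione transferases, between which reads may have been split.

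The steepest falling genes included *Bmp4* and *Bmp2*. *Bmp4* (chr14:46383520-46390669, reverse strand) was listed at 74.9 and 66.8 TPM in the D0 libraries, 33.8 and 41.5 in W1, 9.32 and 10.9 in W2, and 1.31 and 6.73 in W6. *Bmp2* (chr2:133552159-133562885, forward strand) was listed at 49.3 and 56.2 TPM in the D0 libraries, 12.7 and 10.8 in W1, 5.28 and 3.77 in W2, and 2.43 and 2.92 in W6. Both encode bone morphogenetic proteins, and in both the libraries of each timepoint lay under those of the one before. The fitted change was −4.21 ± 0.46 for *Bmp4* (adjusted p = 0.00163 by limma, 0.0103 without D0 replicate 2) and −3.85 ± 0.39 for *Bmp2* (0.00138, 0.0101). *Cxcl14*, a chemokine made by basal keratinocytes (chr13:56288643-56296551, reverse strand), was listed at 677 and 1393 TPM in the D0 libraries, 558 and 541 in W1, 267 and 208 in W2, and 51.9 and 52.1 in W6. The fall of *Cxcl14* was small to W1 and larger after it (fitted change −4.14 ± 0.41, adjusted p = 0.00123, 0.0101 without D0 replicate 2). *Ccrl2*, an atypical receptor that binds chemerin, was listed at 27.9 and 60.04 TPM in the D0 libraries, 4.80 and 4.03 in W1, 2.25 and 1.32 in W2, and 0.631 and 0.394 in W6. It was highest at D0 and under 1 TPM at W6 (fitted change −4.61 ± 0.60, adjusted p = 0.00343, 0.0115 without D0 replicate 2).

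*Krt15*, a keratin of basal cells with stem cell properties (chr11:100131758-100135928, reverse strand), was listed at 11241 and 11928 TPM in the D0 libraries, 10002 and 9055 in W1, 7757 and 6166 in W2, and 429 and 1350.1 in W6. Its decline was modest until W2, and most of it fell between W2 and W6 (fitted change −3.67 ± 0.80, adjusted p = 0.0203). The adjusted p of *Krt15* was 0.0605 when D0 replicate 2 was left out. *Ttc9* and *Usp18* fell more evenly. *Ttc9* was listed at 20.7 and 29.2 TPM in the D0 libraries, 9.89 and 10.99 in W1, 2.75 and 2.04 in W2, and 0.726 and 0.562 in W6. *Usp18*, which removes the ubiquitin-like ISG15 and restrains interferon signalling, was listed at 25.1 and 33.04 TPM in the D0 libraries, 8.10 and 7.63 in W1, 1.85 and 1.68 in W2, and 0.393 and 1.31 in W6. Their fitted changes were −4.09 ± 0.26 (adjusted p = 0.000167) and −4.15 ± 0.37 (0.000878), with 0.00302 and 0.00641 without D0 replicate 2. The other steady fallers were *Man1c1*, *Pmp22*, *Usp2*, *Cd55*, *Il20ra*, *Slc2a12*, *Gas6* and *Cpxm2*, with fitted changes from −4.38 to −3.42. *Pmp22* encodes a membrane protein best known from myelin, *Cd55* a brake on complement, *Il20ra* a receptor subunit for interleukins of the skin, *Slc2a12* a glucose transporter and *Gas6* a ligand of the TAM receptor kinases. Of the 30 genes, 28 were past the threshold without D0 replicate 2 and in each of the other 7 fits that left out 1 library, all but *Car2* and *Krt15*.

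Gene lists for pathways and cell types were then read against the background, under which 8.33% of genes rose and 6.89% fell. Some lists are also given from a fit without both D0 libraries, in which 941 of all 12860 genes rose and 955 fell. Among lists with at least 13 tested members, the ones with the highest share of rising members were those of DNA replication, of S100 and secreted antimicrobial genes, and of suprabasal and cornified envelope genes. That with the highest share of falling members was the list of MHC class I and interferon-linked genes. These ranks depended on D0 replicate 2. With it left out, 1.72% of all genes rose and 1.36% fell. In that fit 4 of 43 DNA replication genes, 5 of 17 S100 and antimicrobial genes, 3 of 26 suprabasal genes and 6 of 32 NRF2 antioxidant genes rose, and 1 of 28 MHC class I and interferon-linked genes fell, against 5 of 33 chemokine and interleukin genes. With W6 replicate 1 left out, 2.34% of all genes rose and 2.11% fell, and the same lists had 4, 4, 4 and 5 rising members and 1 and 6 falling members.

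**Figure D2:**
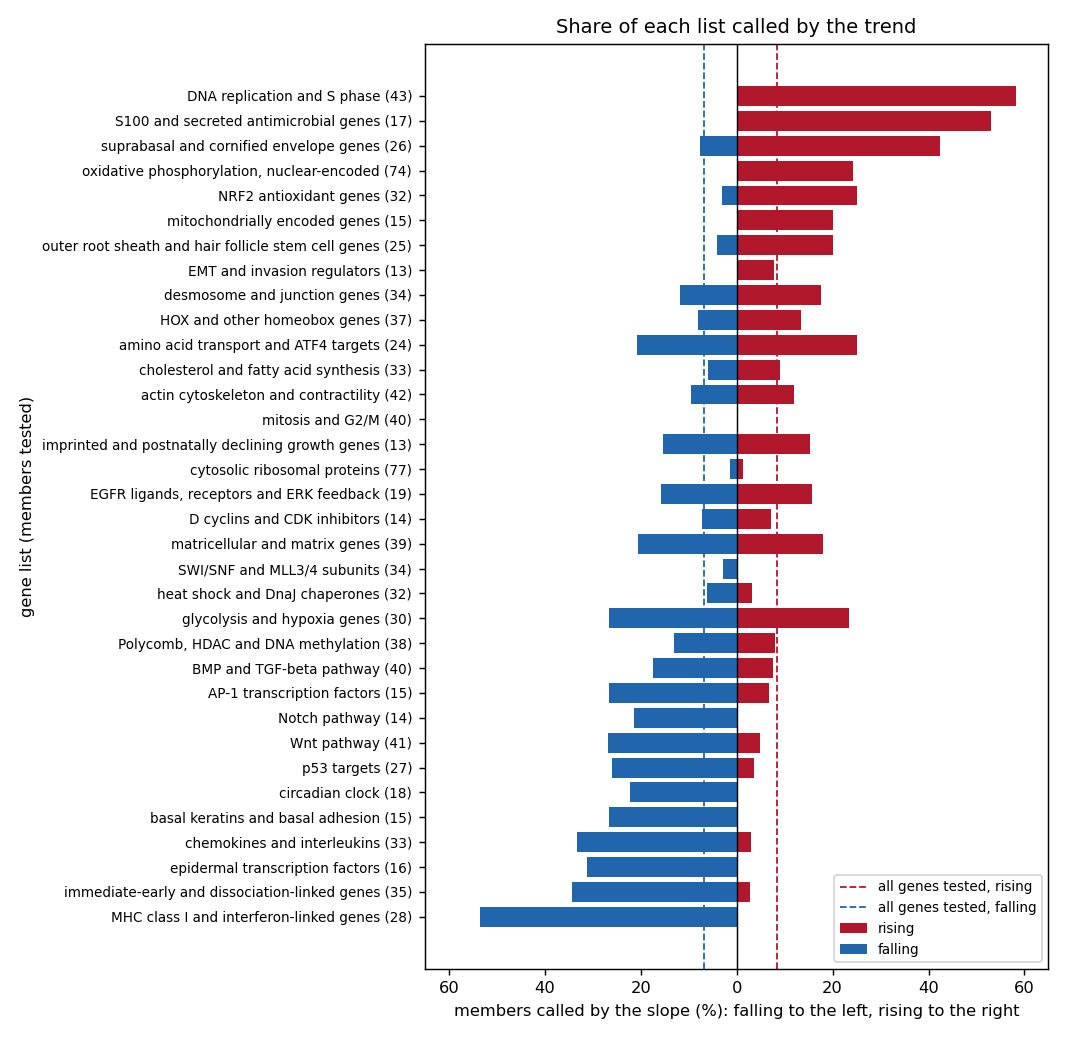
Bars give the percentage of tested members of each gene list that rose (red, to the right) or fell (blue, to the left) by the slope, for the lists with at least 13 tested members; the number tested is in parentheses. Dashed lines mark the 8.33% and 6.89% of all genes that rose and fell; with all 8 libraries DNA replication reaches furthest to the right and MHC class I furthest to the left, an order that did not hold when D0 replicate 2 was left out.

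Of 15 tested genes of basal keratins and basal adhesion 4 fell, whereas 11 of 26 suprabasal and cornified envelope genes and 5 of 7 wound-type and simple keratins rose. Among the basal genes 14 had slopes under 0 (median −0.36). *Krt5* was listed at 14774 and 14609 TPM in the D0 libraries, 12307 and 12354 in W1, 10396 and 10548 in W2, and 9411 and 8227 in W6. All 8 libraries were in order, and the fall was small (fitted change −0.74 ± 0.16, adjusted p = 0.0215 by limma, 0.0527 without D0 replicate 2). Its partner *Krt14* was listed at 29902 and 31096 TPM in the D0 libraries, 20730.5 and 21849 in W1, 19997 and 22823 in W2, and 24719 and 25508 in W6. *Krt14* was lowest at W1 and W2, and its slope missed the threshold (95% interval of the fitted change −0.80 to 0.30). *Col17a1* and *Itga6*, components of the hemidesmosomes that anchor basal cells, fell with slopes of −0.53 (adjusted p = 0.0173) and −0.36 (0.0175), with 0.0839 and 0.0849 without D0 replicate 2. Without that library 0 members were past the threshold in limma, against 7 at an unadjusted p under 0.05. The median of the list was −0.27 and 0.27 at D0, −0.064 and −0.067 at W1, −0.07 and −0.048 at W2, and −0.99 and −1.22 at W6 relative to the D0 mean, so that the fall came between W2 and W6. Without both D0 libraries 10 members fell, where 955 of all 12860 genes did.

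Of 16 epidermal transcription factors, 5 fell (median slope −0.27), and 0 in limma with D0 replicate 2 left out, against 7 at an unadjusted p under 0.05. *Gata3*, a regulator of epidermal differentiation, was listed at 241 and 346 TPM in the D0 libraries, 148 and 173 in W1, 171 and 116 in W2, and 53.1 and 94.2 in W6. D0 was highest and W6 lowest, with W1 and W2 overlapping (fitted change −1.87 ± 0.32, adjusted p = 0.00928 by limma, 0.0527 without D0 replicate 2). *Trp63*, the master regulator of stratified epithelia, was listed at 291 and 654 TPM in the D0 libraries, 209 and 211 in W1, 275 and 219 in W2, and 159.9 and 181 in W6. D0 replicate 2 was the highest library, and the slope missed the threshold (fitted change −1.15 ± 0.38, adjusted p = 0.0705). *Hes1* and *Klf4* fell with slopes of −0.87 and −0.46 (adjusted p = 0.0364 and 0.0491, and 0.167 and 0.21 without D0 replicate 2). *Klf5* also fell (slope −0.31, adjusted p = 0.0763 without D0 replicate 2).

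Among the 26 tested suprabasal and cornified envelope genes, 11 rose and 2 fell (median slope 0.53). *Sprr1b*, a cross-linked precursor of the cornified envelope, was listed at 3.53 and 0.502 TPM in the D0 libraries, 7.20 and 25.97 in W1, 13.98 and 28.7 in W2, and 473 and 155 in W6. W1 and W2 overlapped, and both W6 libraries were highest (fitted change 6.18 ± 0.89, adjusted p = 0.00532 by limma, 0.0349 without D0 replicate 2). *Sprr2h*, *Sprr2d* and *Cnfn* also rose (slopes 1.43, 1.33 and 1.13), as did *Dsc1*, *Flg*, *Lce3c*, *Sprr1a*, *Ivl*, *Tgm1* and *Casp14*. The adjusted p of these 10 genes was 0.0261 to 0.113 without D0 replicate 2. Near-identical members of the Sprr2 family can share reads, so their single values are uncertain. *Krt10* and *Krt1*, the keratins of the spinous layer, missed the threshold and had 95% intervals of the fitted change of −1.27 to 0.17 and −1.11 to 2.35, and *Krt77* fell (slope −0.90, adjusted p = 0.037, 0.0593 without D0 replicate 2). *Dsg1a* fell as well (slope −0.52, adjusted p = 0.0168, 0.0866 without D0 replicate 2). Without D0 replicate 2, 3 members of the list were past the threshold as rising, against 7 without both D0 libraries.

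**Figure D3:**
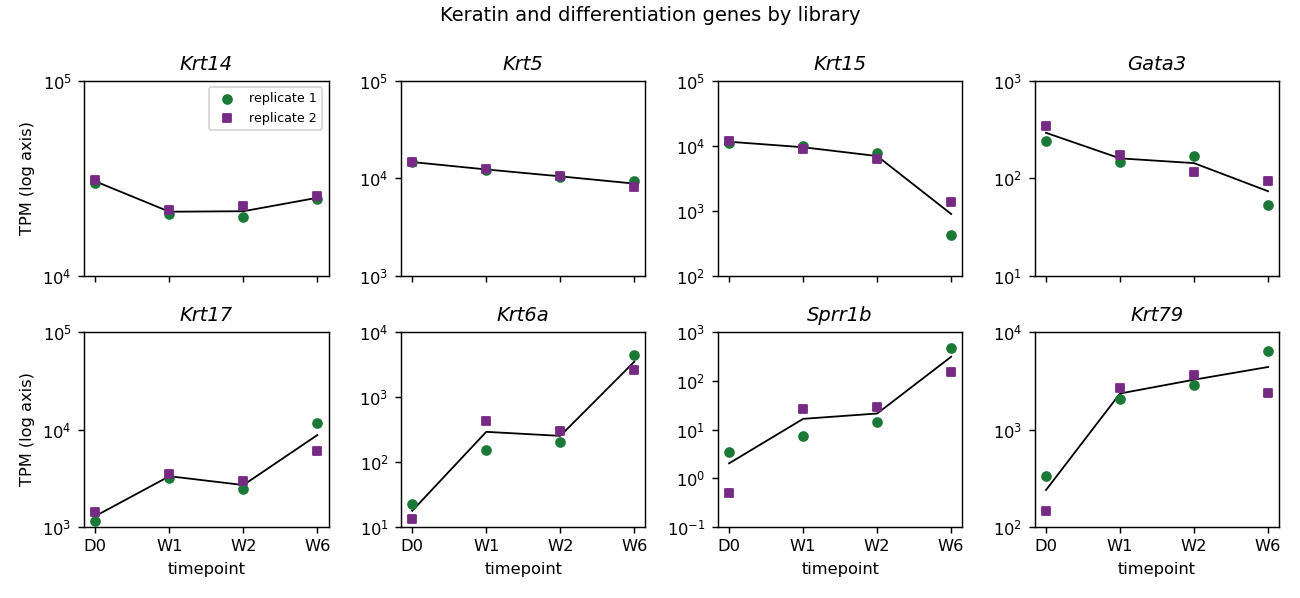
TPM in each library, on log axes whose range differs between panels, against timepoint; circles and squares are replicates 1 and 2, and lines join the means of TPM. Krt5, Krt15 and Gata3 are lower at W6 than at D0, Krt17, Krt6a, Sprr1b and Krt79 are higher, and Krt14 dips at W1 and W2.

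Of 7 tested wound-type and simple keratins, 5 rose (median slope 0.78), and 2 with D0 replicate 2 left out. *Krt6a*, induced in wounded epidermis, was listed at 22.1 and 13.2 TPM in the D0 libraries, 153 and 429 in W1, 201 and 304 in W2, and 4424 and 2603 in W6. It rose in 2 jumps, from D0 to W1 and from W2 to W6, with W1 and W2 overlapping (fitted change 6.78 ± 0.88, adjusted p = 0.00346 by limma, 0.0237 without D0 replicate 2). *Krt17* was listed at 1147 and 1430.5 TPM in the D0 libraries, 3163 and 3458 in W1, 2438 and 2937 in W2, and 11556 and 6011 in W6. It was lower at W2 than at W1 and highest at W6 (fitted change 2.34 ± 0.45, adjusted p = 0.014, 0.0603 without D0 replicate 2). *Krt79*, a keratin of the infundibulum and sebaceous duct, was listed at 330.4 and 147 TPM in the D0 libraries, 2045 and 2648 in W1, 2838 and 3670.4 in W2, and 6417 and 2375 in W6. The largest step of *Krt79* was from D0 to W1, and the W6 libraries lay on either side of the W2 libraries (fitted change 3.87 ± 0.87, adjusted p = 0.0221, 0.0934 without D0 replicate 2). *Krt6b*, close in sequence to *Krt6a*, and *Krt8* rose with slopes of 2.00 and 0.67 (adjusted p = 0.0442 to 0.128 without D0 replicate 2).

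Of 25 tested genes of the outer root sheath and of hair follicle stem cells, 5 rose (*Krt79*, *Runx1*, *Fst*, *Foxc1* and *Krt17*, adjusted p = 0.0603 to 0.0951 by limma without D0 replicate 2), *Cxcl14* fell, and 9 departed from a straight trend, against 7.58% of all genes. This departure count was 1 or 2 with any W1 or W2 library left out. The medians of this list were −0.14 and 0.14 at D0, 0.76 and 0.63 at W1, 0.96 and 0.88 at W2, and 0.79 and 0.47 at W6 relative to the D0 mean, higher in all 6 later libraries than in either D0 library and not higher at W6 than at W2. From D0 to W1 18 of the 25 had a higher mean and from W2 to W6 7 had (median step −0.58). Without the W6 libraries 11 of the 25 rose (median slope 0.46), where 603 of all 12860 genes did, and without both D0 libraries 3 rose. As rising, 0 members were past the threshold in limma without D0 replicate 2, against 7 at an unadjusted p under 0.05. *Nfatc1*, of hair follicle stem cells, was listed at 20.7 and 28.3 TPM in the D0 libraries, 61.8 and 61.2 in W1, 71.8 and 62.7 in W2, and 46.6 and 27.7 in W6. It was highest at W1 and W2 (departure adjusted p = 0.0302 by limma). *Lhx2* stayed between 0.904 and 4.08 TPM, with D0 replicate 2 the highest library. Markers of sebocytes, which lie beside the upper follicle, were also higher in the later libraries. Of 10 such markers 6 were tested and 5 rose (*Krt79*, *Fabp5*, *Scd3*, *Mgst1* and *Cidea*, adjusted p = 0.024 to 0.102 without D0 replicate 2), and their summed level was 529.9 and 258 TPM in the D0 libraries, 2332 and 3018 in W1, 3343 and 4199.9 in W2, and 8453 and 4045 in W6. Most of this sum was *Krt79* in each library, by the values given above, and *Krt79* is also counted among the follicle genes. The share of the sebocyte markers in the rise of the follicle genes was not tested, and in a sorted population more cells of a type and more RNA per cell cannot be told apart.

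Genes of DNA replication rose in 25 of 43 cases, against 8.33% of all genes. All 43 had slopes above 0, and the median slope was 0.40. *Rrm2*, a subunit of ribonucleotide reductase, was listed at 50.997 and 16.7 TPM in the D0 libraries, 33.7 and 33.2 in W1, 57.5 and 62.8 in W2, and 173 and 163 in W6. W6 was above all other libraries, while D0 replicate 1 lay between W1 and W2 and D0 replicate 2 under all others (fitted change 2.48 ± 0.47, adjusted p = 0.0129 by limma, 0.0704 without D0 replicate 2). *Tk1*, *Ccne1* and *Chaf1b* (thymidine kinase, cyclin E1 and a histone chaperone subunit) rose with slopes of 0.67, 0.66 and 0.66 (adjusted p = 0.045 to 0.153 without D0 replicate 2). The replicative helicase was included through *Mcm2*, *Mcm3*, *Mcm4*, *Mcm5*, *Mcm6* and *Mcm7*, with slopes of 0.38 to 0.57 (adjusted p = 0.0325 to 0.11 without D0 replicate 2). The median of the list was 0.47 and −0.47 at D0, 0.19 and 0.094 at W1, 0.55 and 0.48 at W2, and 1.12 and 1.33 at W6 relative to the D0 mean, so that the 2 D0 libraries differed from each other by more than W1 and W2 did from D0 replicate 1. Without D0 replicate 2, 4 members were past the threshold and the median slope was 0.34, whereas without both D0 libraries 35 rose.

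Genes of mitosis were lowest at W1. Of 40, 0 passed the slope test in limma, against 6 at an unadjusted p under 0.05, 0 without a variance trend and 16 under the linear contrast of the timepoint means. The 0 of the slope test did not hold with D0 replicate 1 left out. The median of the list was 0.29 and −0.29 at D0, −0.68 and −0.86 at W1, −0.28 and −0.26 at W2, and 0.50 and 0.60 at W6 relative to the D0 mean. It was thus lower at W1 than in either D0 library, near the D0 range at W2 and above it at W6, and 15 members departed from a straight trend, all with an upward bend. With any W1 or W2 library left out at most 3 members departed, and with D0 replicate 2 left out 32 did. From D0 to W1, 1 of 40 mitotic genes had a higher mean, and from W2 to W6 40 had. Without the D0 libraries 34 rose, where 941 of all 12860 genes did, and without the W6 libraries the median slope was −0.14. *Mki67*, a marker of cycling cells, was listed at 25.4 and 10.7 TPM in the D0 libraries, 13.3 and 12.001 in W1, 17.6 and 20.5 in W2, and 23.4 and 29.1 in W6. D0 replicate 1 lay between the W6 libraries, and the slope missed the threshold (95% interval of the fitted change −0.12 to 1.57).

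**Figure D4:**
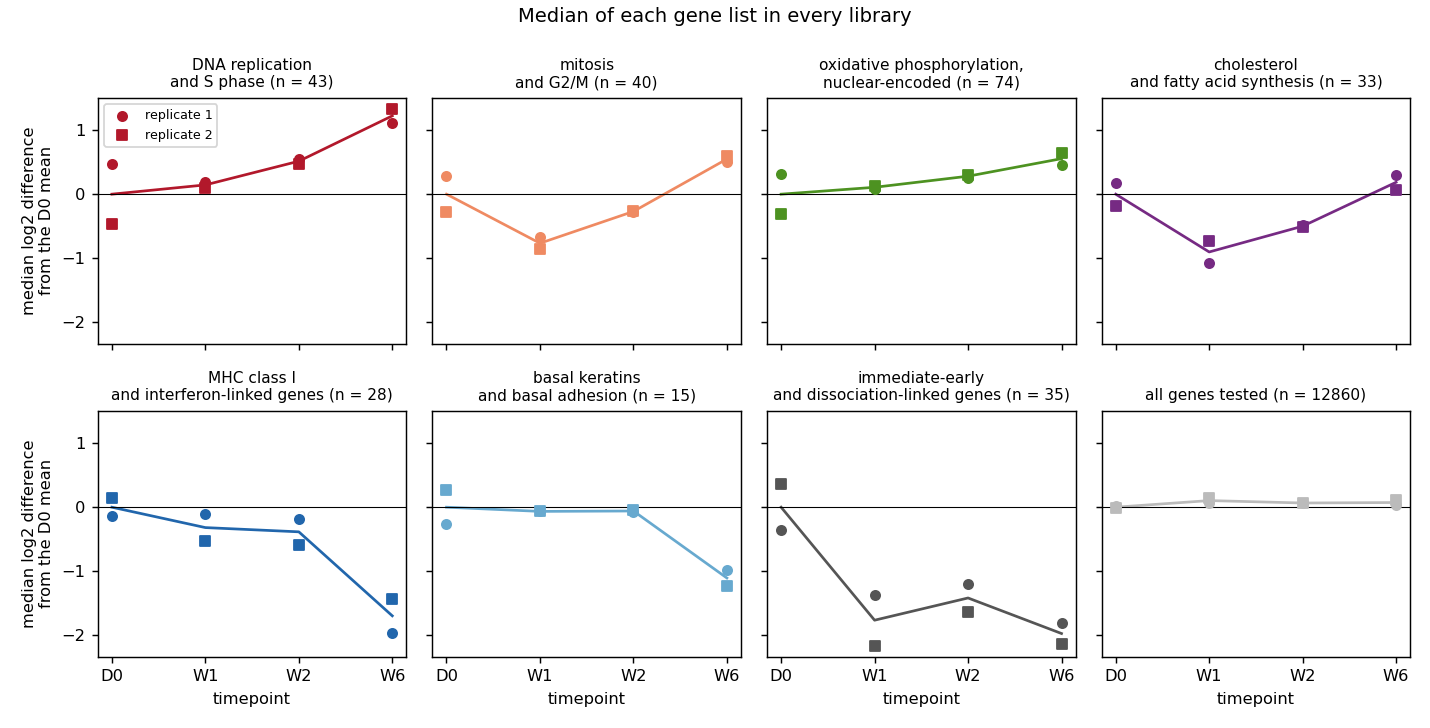
For each gene list, points give the median over its tested members of the difference in log2(TPM + 1) from the D0 mean in each library (circles replicate 1, squares replicate 2), and lines join the means of the replicates. DNA replication climbs to 1.12 and 1.33 at W6, the mitosis and cholesterol lists dip at W1 before they climb, and the MHC class I and basal lists drop mainly between W2 and W6.

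Nuclear genes of oxidative phosphorylation rose in 18 of 74 cases, by small amounts, and 71 had slopes above 0 (median 0.18). The count was 10 with values corrected for transcript length and GC content (median slope 0.12), 12 under median-ratio scaling and 8 without a variance trend, and from 0 to 55 when each library was left out in turn (55 without D0 replicate 1). *Ndufa4* was listed at 514 and 190.5 TPM in the D0 libraries, 624 and 741 in W1, 653 and 701 in W2, and 1139 and 1107 in W6, with D0 replicate 2 far under D0 replicate 1 (fitted change 1.65 ± 0.40, adjusted p = 0.0279 by limma, 0.0549 without D0 replicate 2). *Sdhb* and *Sdhd*, of succinate dehydrogenase, rose with slopes of 0.31 and 0.33 (adjusted p = 0.098 to 0.193 without D0 replicate 2). Without D0 replicate 2, 0 members were past the threshold in limma, against 22 at an unadjusted p under 0.05, and the median slope was 0.13. Without both D0 libraries 27 rose, where 941 of all 12860 genes did. The genes of the mitochondrial genome were higher at W1 than at D0 in all 15 cases, and 5 of the 15 were higher at W6 than at W2. Of these, *mt-Nd1*, *mt-Nd5* and *mt-Nd6* passed the slope test, and 1 under the length and GC correction (slopes 0.28, 0.27 and 0.28, adjusted p = 0.106 to 0.197 without D0 replicate 2).

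The Wnt pathway, in which secreted ligands act through Frizzled receptors on β-catenin, maintains basal cells and starts hair follicles. Of 41 tested genes, 11 fell, 7 of them ligand genes, and 2 rose, against 3 and 2 without D0 replicate 2. Without the W6 libraries 6 rose and 7 fell, where 603 and 424 of all 12860 genes did. The median slope was then 0.17, against −0.033 with all 8 libraries. *Wnt3* was listed at 138 and 144 TPM in the D0 libraries, 29.9 and 31.6 in W1, 19.9 and 13.9 in W2, and 5.96 and 22.8 in W6. *Wnt6* was listed at 37.4 and 38.1 TPM in the D0 libraries, 14.9 and 15.4 in W1, 8.75 and 10.05 in W2, and 4.49 and 3.23 in W6. *Wnt7b* was listed at 86.8 and 131 TPM in the D0 libraries, 46.9 and 43.4 in W1, 15.6 and 24.7 in W2, and 9.97 and 11.4 in W6. In *Wnt6* and *Wnt7b* all 8 libraries were in falling order, and in *Wnt3* W6 replicate 2 lay above both W2 libraries. Their fitted changes were −3.37 ± 0.58 (adjusted p = 0.00957 by limma), −2.90 ± 0.22 (0.000412) and −3.23 ± 0.26 (0.000434). Their adjusted p without D0 replicate 2 was 0.0554, 0.00388 and 0.00388. *Wnt3a* was near its W6 level already at W1 (slope −0.82, adjusted p = 0.0422, 0.194 without D0 replicate 2), and *Wnt4*, *Wnt10a* and *Wnt10b* fell with slopes of −0.53, −0.39 and −0.42. The receptors *Fzd10* and *Fzd8*, the ligand carrier *Wls* and the receptor-removing ligase *Znrf3* fell as well (slopes −0.51, −0.35, −0.34 and −0.32). The adjusted p of these 7 genes from *Wnt4* to *Znrf3* was 0.0353 to 0.151 without D0 replicate 2. The 2 risers were the inhibitor *Nkd2* and *Porcn*, which lipidates Wnt ligands (slope 0.58, adjusted p = 0.0099, 0.0466 without D0 replicate 2).

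In the BMP and TGF-β pathway 7 of 40 tested genes fell and 3 rose, and 2 fell without D0 replicate 2. Beside the ligands *Bmp4* and *Bmp2*, the BMP target *Id3* and the TGF-β target *Tgfbi* fell (slopes −0.77 and −0.51, adjusted p = 0.0151 and 0.0257 by limma, 0.079 and 0.111 without D0 replicate 2), as did *Fstl3*, *Bmpr1b* and *Smad3* (0.149 to 0.163 without D0 replicate 2). *Bmp7* moved the other way from *Bmp2* and *Bmp4*. It was listed at 29.2 and 33.8 TPM in the D0 libraries, 67.3 and 71.3 in W1, 99.04 and 103 in W2, and 120.3 and 77.98 in W6, with both D0 libraries lowest and W6 replicate 2 under the W2 libraries (fitted change 1.60 ± 0.33, adjusted p = 0.0166, 0.0835 without D0 replicate 2). *Fst*, encoding the secreted antagonist follistatin, rose with a slope of 0.85 (adjusted p = 0.0201, 0.0951 without D0 replicate 2), and *Inhba*, an activin subunit, with 0.57 (0.0257, 0.108).

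**Figure D5:**
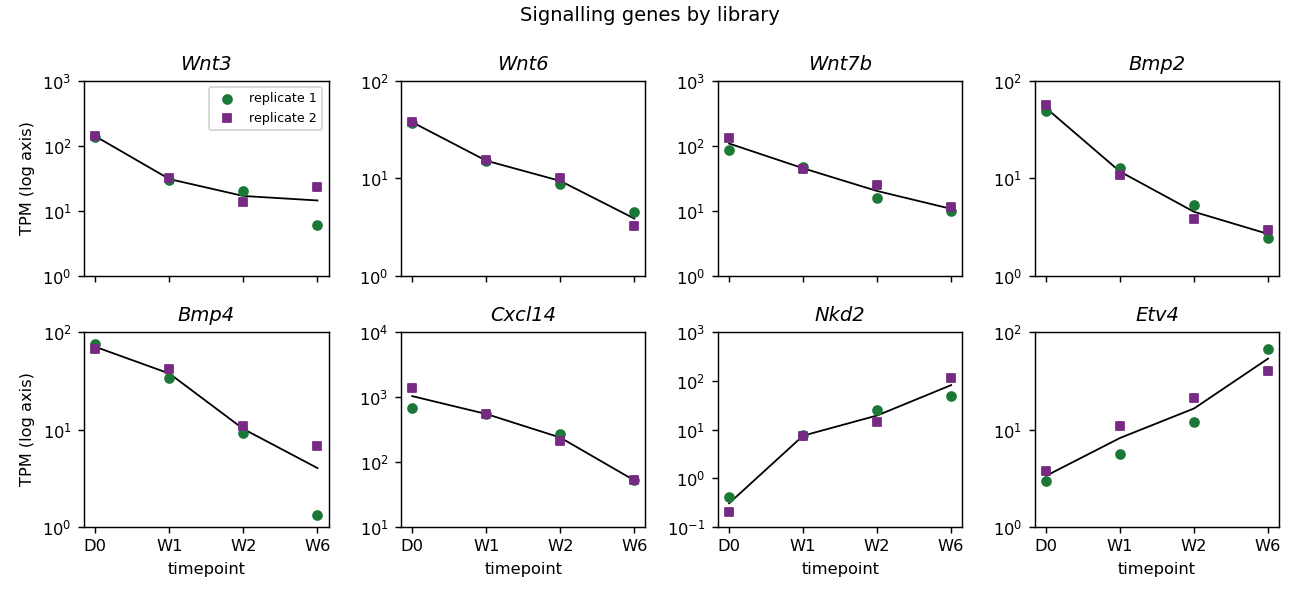
TPM in each library, on log axes whose range differs between panels, against timepoint; circles and squares are replicates 1 and 2, and lines join the means of TPM. Wnt6, Wnt7b, Bmp2, Bmp4 and Cxcl14 fall at every step, Wnt3 falls mostly by W1, and Nkd2 and Etv4 rise at every step.

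Notch genes fell in 3 of 14 cases, namely *Hes1*, a target, and the ligands *Dll1* and *Jag2* (slopes −0.87, −0.83 and −0.52, adjusted p = 0.0364, 0.0214 and 0.0408 by limma). Leaving out D0 replicate 2 gave 0.167, 0.102 and 0.152. Of 10 Hedgehog genes *Cdon*, a co-receptor, fell (slope −0.61, adjusted p = 0.00589, 0.0349 without D0 replicate 2), where 6.89% of all genes fell. Of 19 genes around EGFR, 3 rose and 3 fell, and 2 and 1 did so with D0 replicate 2 left out. The receptor gene *Egfr* was listed at 59.9 and 74.9 TPM in the D0 libraries, 49.6 and 50.5 in W1, 46.1 and 38.7 in W2, and 22.2 and 31.1 in W6. All of its libraries were in falling order (fitted change −1.26 ± 0.21, adjusted p = 0.0086, 0.05 without D0 replicate 2). Of its feedback inhibitors *Errfi1* and *Dusp5* fell (slopes −0.77 and −0.98), most of it before W1, with 0.0974 and 0.0985 without D0 replicate 2. The ligands *Nrg1* and *Ereg* rose, mainly between W2 and W6 (slopes 1.08 and 0.71, adjusted p = 0.0194 and 0.0403, 0.0475 and 0.0894 without D0 replicate 2). *Etv4*, a target of ERK signalling, was listed at 2.97 and 3.71 TPM in the D0 libraries, 5.58 and 10.8 in W1, 11.95 and 20.97 in W2, and 67.3 and 39.9 in W6. Its libraries were in order throughout (fitted change 3.53 ± 0.38, adjusted p = 0.00163, 0.0101 without D0 replicate 2).

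MHC class I and interferon-linked genes fell in 15 of 28 cases, against 6.89% of all genes, and 26 had slopes under 0 (median −0.49). They included the light chain *B2m* and the heavy chain genes *H2-K1* and *H2-Q4* (slopes −0.40, −0.59 and −0.62), the immunoproteasome subunits *Psmb8* and *Psmb9* (−0.56 and −0.59), the regulators *Irf7* and *Nlrc5* (−0.60 and −0.45) and the interferon targets *Oasl2* and *Xaf1* (−0.74 and −0.73). Reads of H2 genes may be shared between alleles and relatives, so single H2 values are uncertain. The median of the list was −0.14 and 0.14 at D0, −0.11 and −0.53 at W1, −0.18 and −0.59 at W2, and −1.96 and −1.43 at W6 relative to the D0 mean. At W1 and W2 it lay near or under the D0 range, and the drop fell between W2 and W6. When D0 replicate 2 was left out, *Usp18* was the only member past the threshold while the median slope was −0.51, and without both D0 libraries 9 fell. The summed level of the immune markers was 54.3 and 34.99 TPM in the D0 libraries, 58.4 and 43.5 in W1, 59.03 and 43.01 in W2, and 27.98 and 14.2 in W6, and their part in this list was not tested.

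Chemokine and interleukin genes fell in 11 of 33 cases, against 5 without D0 replicate 2, with *Il18* rising (slope 0.67, adjusted p = 0.0103 by limma, 0.0291 without D0 replicate 2). *Il33*, an alarmin of barrier epithelia, was listed at 113 and 154 TPM in the D0 libraries, 45.2 and 48.4 in W1, 16.2 and 10.9 in W2, and 1.95 and 20.5 in W6. The 2 W6 libraries spanned the W2 values (fitted change −4.18 ± 0.69, adjusted p = 0.00847, 0.0507 without D0 replicate 2). *Il12rb2* and the decoy receptor *Il1r2* were lost mainly between D0 and W1 (slopes −1.54 and −1.22, adjusted p = 0.0408 and 0.0385, 0.185 and 0.179 without D0 replicate 2).

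Secreted antimicrobial and S100 genes rose in 9 of 17 cases (median slope 0.41), and 5 members were past the threshold without D0 replicate 2. *Slpi*, an inhibitor of neutrophil proteases, was listed at 0.527 and 0.148 TPM in the D0 libraries, 2.10 and 5.80 in W1, 5.15 and 13.5 in W2, and 141 and 66.9 in W6. W1 and W2 overlapped, and both W6 libraries were above all others (fitted change 5.90 ± 0.67, adjusted p = 0.00194 by limma, 0.0141 without D0 replicate 2). *S100a8* and *S100a9* encode the subunits of calprotectin, and *S100a9* was listed at 0.0949 and 0.215 TPM in the D0 libraries, 1.39 and 7.41 in W1, 4.33 and 8.27 in W2, and 65.2 and 31.8 in W6. Its lowest libraries were those of D0 and its highest those of W6 (slope 1.67, adjusted p = 0.00343, 0.0205 without D0 replicate 2). *S100a8* rose with a slope of 1.19 (adjusted p = 0.0427, 0.182 without D0 replicate 2) and *Lcn2* with 1.31 (adjusted p = 0.00583, 0.0327). These genes are also expressed by neutrophils, and *Ptprc*, carried by neutrophils as by other blood cells, was at 0.300 TPM or less in all 8 libraries. The part of neutrophils in these values was not tested.

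Of 32 tested NRF2 antioxidant genes, *Gpx2* included, 8 rose, 6 members were past the threshold as rising without D0 replicate 2, and the ferritin chain *Fth1* fell (slope −0.69, adjusted p = 0.00414 by limma, 0.0221 without D0 replicate 2). *Nqo1*, a quinone reductase, was listed at 17.5 and 13.9 TPM in the D0 libraries, 26.02 and 18.5 in W1, 46.7 and 51.1 in W2, and 79.3 and 97.97 in W6. Its libraries were in rising order (fitted change 2.52 ± 0.24, adjusted p = 0.000994, 0.00889 without D0 replicate 2). *Akr1b8* and *Gsta4* rose with slopes of 0.81 and 1.57 (adjusted p = 0.00169 and 0.011, 0.0132 and 0.0464 without D0 replicate 2), *Gsta4* mainly between W2 and W6.

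Other metabolic lists were divided. Of 30 glycolysis and hypoxia genes, 7 rose, among them *Eno1*, *Pgk1*, *Hk2* and *Car12* (slopes 0.38, 0.35, 0.54 and 0.91), and 8 fell, among them *Ndrg1*, *Bnip3*, *P4ha1* and *Pfkfb3* (−0.74, −0.77, −0.54 and −0.50). Without D0 replicate 2 2 members rose and 1 fell. The adjusted p of these 8 genes was 0.002 to 0.173 without D0 replicate 2. *Car12* was listed at 24.6 and 19.4 TPM in the D0 libraries, 40.6 and 37.2 in W1, 81.7 and 80.8 in W2, and 155 and 136 in W6, in order through all 8 libraries (fitted change 2.72 ± 0.17, adjusted p = 0.000167 by limma, 0.002 without D0 replicate 2). Of 24 amino acid transport and ATF4 genes, 6 rose, including the serine synthesis enzymes *Psat1* and *Psph* (slopes 0.40 and 0.74), and 5 fell, including *Atf4* itself (−0.57), with adjusted p of 0.0353 to 0.142 without D0 replicate 2, when 1 member of the list rose. Cholesterol and fatty acid synthesis genes departed from a straight trend in 15 of 33 cases, all with an upward bend, against 7.58% of all genes, and in 7 to 9 cases with any W1 or W2 library left out. Their median was 0.18 and −0.18 at D0, −1.08 and −0.72 at W1, −0.48 and −0.52 at W2, and 0.30 and 0.071 at W6 relative to the D0 mean, lowest at W1.

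Immediate-early genes fell in 12 of 35 cases, mostly between D0 and W1, and in 1 case without D0 replicate 2 and 7 under the length and GC correction. Over all libraries left out in turn the count ran from 1 to 23 (23 without W1 replicate 2). *Dusp2* rose (adjusted p = 0.204 by limma without D0 replicate 2), and 12 departed from a straight trend (median slope −0.58), against 1 to 4 with any W1, W2 or W6 library left out. The median of the list was −0.36 and 0.36 at D0, −1.37 and −2.16 at W1, −1.19 and −1.64 at W2, and −1.81 and −2.13 at W6 relative to the D0 mean, and without both D0 libraries the median slope was −0.028 and 2 members fell. *Myc*, an immediate-early gene and oncogene, was listed at 697 and 1161 TPM in the D0 libraries, 413 and 168 in W1, 412 and 224 in W2, and 130.4 and 109.8 in W6. It fell further after W2 (fitted change −2.55 ± 0.54, adjusted p = 0.0192 by limma, 0.097 without D0 replicate 2). *Ccn1* fell from D0 to W1 and not steadily thereafter (slope −1.27, adjusted p = 0.0358, 0.167 without D0 replicate 2). Of 15 AP-1 genes 4 fell, namely *Jund*, *Fosl2*, *Maff* and *Mafk* (slopes −0.60, −0.42, −0.78 and −0.78, with 0.0777, 0.135, 0.0527 and 0.037 as adjusted p without D0 replicate 2), and *Jdp2*, a repressor of AP-1 sites, rose (slope 0.63, adjusted p = 0.0306 without D0 replicate 2). The number of falling AP-1 genes also moved with the library left out, highest without W1 replicate 2 and lowest without D0 replicate 2. The part of cell dissociation in the D0 levels of immediate-early and AP-1 genes was not tested.

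Of 27 p53 targets 7 fell, against 1 without D0 replicate 2, including *Trp53inp1*, the death receptor gene *Fas* and the CDK inhibitor gene *Cdkn1a* (slopes −1.09, −0.70 and −0.56, adjusted p = 0.00358, 0.0109 and 0.0256 by limma, 0.0226, 0.0564 and 0.113 without D0 replicate 2), and *Eda2r* rose (slope 0.36, adjusted p = 0.0241, 0.0572 without D0 replicate 2). Of 18 clock genes 4 fell: *Rora*, *Npas2*, *Per1* and *Nfil3* (slopes −1.10, −1.07, −0.70 and −0.70), of which *Npas2* was also past the threshold without D0 replicate 2 (adjusted p = 0.028), with 0.0535 to 0.222 for the other 3. The time of day at collection is not given in the sources used here.

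Of 77 cytosolic ribosomal protein genes *Rpl27* rose (slope 0.24) and *Rps2* fell (−1.48), shares of 1.30% each, with adjusted p of 0.115 to 0.163 without D0 replicate 2, and in 15 the interval of the fitted change lay within −0.5 and 0.5. *Rps2* has many processed copies in the genome, and its values, from 21.3 to 756 TPM with the W2 replicates far apart, are uncertain. Of the 77 slopes 68 were above 0 (median 0.088), and more members rose with D0 replicate 1 left out. Of 34 SWI/SNF and MLL3/4 genes *Kmt2c* fell (slope −0.32, adjusted p = 0.042 by limma, 0.139 without D0 replicate 2), or 2.94% of the list. Of 38 genes of Polycomb, histone deacetylases and DNA methylation 3 rose (7.89%, against 8.33% of all genes), with *Uhrf1* the steepest (slope 0.48), and 5 fell (13.2%, against 6.89%), with *Hdac5* the steepest (−0.66, adjusted p = 0.0572 to 0.103 for the pair without D0 replicate 2). With that library left out, 0 members rose and 0 fell in limma, against 5 and 6 at an unadjusted p under 0.05. Of 14 cyclin D and CDK inhibitor genes *Rbl1* rose (slope 0.34, adjusted p = 0.109 without D0 replicate 2) and *Cdkn1a* fell, shares of 7.14% each and near those of all genes.

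Among 34 desmosome and junction genes 6 rose (17.6%, against 8.33% of all genes), including *Cldn4*, *Cldn8* and *Gjb2* (slopes 0.77, 0.72 and 0.61), and 4 fell (11.8%, against 6.89%), including *Dsg2*, *Tjp3* and *Nectin2* (−0.40, −0.38 and −0.51). With D0 replicate 2 left out 2 members rose and 0 fell in limma, against 6 and 4 at an unadjusted p under 0.05. The adjusted p of the 6 genes named was then 0.0484 to 0.181. Among 42 actin genes 5 rose (11.9%) and 4 fell (9.52%), shares near those of all genes, and 3 and 1 did so when D0 replicate 2 was left out. The bundling protein gene *Fscn1* was listed at 8.73 and 7.89 TPM in the D0 libraries, 12.9 and 10.01 in W1, 24.3 and 22.2 in W2, and 77.5 and 34.1 in W6. The *Fscn1* libraries were in rising order (fitted change 2.54 ± 0.35, adjusted p = 0.00414 by limma, 0.0222 without D0 replicate 2). *Actg1*, *Ezr*, *Vasp* and *Vcl* fell (slopes −0.39, −0.45, −0.31 and −0.20, adjusted p = 0.045 to 0.121 without D0 replicate 2). Of 39 matrix genes 7 rose (17.9%) and 8 fell (20.5%), against 3 and 2 when D0 replicate 2 was left out. *Thbs1*, encoding thrombospondin 1, was listed at 787 and 1679 TPM in the D0 libraries, 329 and 192 in W1, 229 and 141 in W2, and 86.3 and 53.2 in W6. The fall was largest from D0 to W1 and went on to W6 (fitted change −3.80 ± 0.50, adjusted p = 0.00359, 0.0144 without D0 replicate 2). The basement membrane collagen IV genes *Col4a1*, *Col4a2*, *Col4a5* and *Col4a6* fell with slopes of −0.86, −0.81, −0.74 and −0.81 (adjusted p = 0.0507 to 0.156 without D0 replicate 2). *Fbln1* and *Fbln2* rose with slopes of 0.98 and 0.82 (0.0362 to 0.0554). Summed fibroblast markers were 53.2 TPM in W6 replicate 2 and 0.585 to 4.30 TPM in the other 7 libraries, and with W6 replicate 2 left out 6 matrix genes rose and 7 fell, against 4 and 2 with W6 replicate 1 left out.

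A straight line did not describe every moving gene. In 975 genes (7.58%) the 4 timepoint means departed from a straight trend, and 835 of these were not called by the slope. The departure count rested on single libraries. It was 1716 with D0 replicate 2 left out, 195 and 119 with either W1 library left out, and 194 and 234 with either W2 library left out. The quadratic contrast was under 0, a downward bend, in 606 of the 975 and above 0, an upward bend, in 369. Of the 1071 rising genes 85 departed, and of the 886 falling genes 55. *Gphb5*, a glycoprotein hormone subunit, was listed at 0 and 0 TPM in the D0 libraries, 71.2 and 93.6 in W1, 7.92 and 5.23 in W2, and 0.398 and 0.0234 in W6. It was listed at 0 in both D0 libraries, highest at W1 and near 0 again at W6 (departure adjusted p = 0.000173 by limma). *Agr3* was likewise highest at W1 (quadratic contrast −1.64 ± 0.11, SE, adjusted p = 0.00156). *Igfbp3* and *Fgfbp1* were highest at D0 and lowest at W1 or W2. *Igfbp3* was listed at 551 and 595 TPM in the D0 libraries, 2.22 and 1.01 in W1, 1.64 and 0.812 in W2, and 1.32 and 21.8 in W6, and *Fgfbp1* at 755 and 1129 TPM in the D0 libraries, 34.4 and 55.5 in W1, 82.4 and 92.1 in W2, and 303 and 448 in W6. *Igfbp3* stayed low apart from W6 replicate 2, whereas *Fgfbp1* climbed again at W2 and W6 (departure adjusted p = 0.0137 and 0.00156).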

How the data were processed

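RNA-seq was measured in EpdSCs sorted from back skin at D0, W1, W2 and W6 of SOX9 induction, with 2 libraries at each timepoint. Groups and replicate numbers were taken from the sample labels. TPM values for each gene were deposited. To make them the authors trimmed the reads (Skewer), ran Salmon 1.4.0 on a GENCODE transcript index for GRCm38 to which the transgene had been added, and collapsed transcripts to genes with Tximport 1.12.3. Library depth cannot be read from TPM and is unknown. A table of fold changes and p-values from the authors' own comparison of placode libraries was not used here, and W12 entered no test.

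Genes averaging 1 TPM or more across the 8 libraries were tested on log2(TPM + 1), which understates the change of low genes. limma 3.58.1 in R 4.3.3 fitted 1 slope over the codes 0, 1, 2 and 3 with no covariate and a variance trend in eBayes, and p-values were adjusted by Benjamini-Hochberg over 12860 genes. A departure from a straight trend was tested with limma's F test of the quadratic and cubic contrasts of the timepoint means. On simulated data with 200 changed genes among 12860, the slope test called 63% of the genes with a log2 change of 2 and 17% at a log2 change of 1, with 6 unchanged genes called and none with the wrong sign.

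The comparison, the gene lists and the alternatives were chosen with earlier results of these data known. Named were the 15 rising and 15 falling genes with the largest slopes among called genes whose 8 libraries were in order, without predicted genes and pseudogenes; up to 4 rising and 4 falling members of each list by slope; 15 regulators, keratins and transgenes whatever their values; and the 6 departing genes with the largest quadratic contrast. Some genes that these rules named are not reported here. Other called members of a list were added by name after their values were seen. Alternatives were another pseudocount, other filters, scalings, codes and variance settings, a length and GC correction, a replicate block, and leaving out timepoints or each library in turn. Gene positions (GRCm38) were read from GENCODE M21, and promoter windows from RefSeq (GRCm38.p6). Summaries and plots were made in Python 3.11.15 (pandas 2.3.3, numpy 2.4.6, matplotlib 3.10.9).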

Additional observations from a re-analysis of the deposited data

How the results depend on the processing

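With all settings as reported, 1071 genes rose, 886 fell and 975 departed from a straight trend, and the cause of the shifts given here was not tested. With all genes listed above 0 in the test, 259 rose, 244 fell and 164 departed. The linear contrast of the timepoint means, which takes the spread from within timepoints, gave 2002 and 1694, and leaving out the W6 libraries gave 603 and 424. When each library was left out in turn, the counts ran from 221 to 1425 rising, from 175 to 1084 falling and from 119 to 1716 departing. The fewest slope calls came without D0 replicate 2 (221 and 175), and without W6 replicate 1 they were 301 and 271. Without W1 replicate 1 there were 674 rising, and without W6 replicate 2 there were 645. Departures numbered 1716 without D0 replicate 2, 195 and 119 without either W1 library, and 194 and 234 without either W2 library. The replicate block left 718 rising, 617 falling and 532 departing genes. Replicate numbers came from different mice and their deviations correlated between −0.132 and 0.186 across the 6 pairs of timepoints, so they were not taken as pairs. Within lists, the length and GC correction also moved rising Wnt genes from 2 to 4, rising BMP and TGF-β genes from 3 to 6, rising Polycomb genes from 3 to 5, and falling amino acid and ATF4 genes from 5 to 3. The other alternatives stayed within 1.5 times the reported counts, between 777 and 1166 rising and between 692 and 1079 falling. Of the 186 named genes that passed the test, 70 passed it without D0 replicate 2 and 145 under the replicate block, and none of them changed direction. Among genes whose slope missed the threshold, the sign turned in some settings. Without the W6 libraries the slope was 1.17 for *Agr3*, 1.45 for *Gphb5* and −0.42 for *Krt1*. Without the D0 libraries it was 1.52 for *Fgfbp1*, 0.76 for *Igfbp3*, 0.12 for *Krt14*, 0.22 for *Lhx2*, −0.90 for MYC-SOX9 and −0.38 for *Nfatc1*. Leaving out W6 replicate 1 or 2 gave 0.23 and 0.056 for *Agr3* (lowest −0.66 over all libraries left out) and 0.075 and 0.18 for *Gphb5* (lowest −0.91), and W6 replicate 2 gave −0.059 for *Krt1* (highest 0.56). Leaving out D0 replicate 1 or 2 gave 0.055 and 0.19 for *Fgfbp1* (lowest −0.69), D0 replicate 1 gave −0.00045 for *Nfatc1* (highest 0.39), and D0 replicate 2 gave 0.14 for *Lhx2* (lowest −0.10). Codes in weeks gave 0.065 for *Fgfbp1*, and a pseudocount of 0.1 gave 0.029 for *Gphb5*. TPM hold no depth, so precision at low values is unknown.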

Other observations

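Of 37 tested homeobox genes 5 rose (13.5%) and 3 fell (8.11%), near the 8.33% and 6.89% of all genes, and 1 and 2 did so without D0 replicate 2. *Pitx1* was listed at 0 and 0 TPM in the D0 libraries, 0 and 0.0906 in W1, 0.0157 and 0.0407 in W2, and 17.7 and 27.4 in W6. Thus it was at or near 0 until W2 and present in both W6 libraries (adjusted p = 0.0402 by limma, 0.0943 without D0 replicate 2). *Satb1*, a chromatin organiser of the epidermis, was listed at 27.03 and 39.8 TPM in the D0 libraries, 14.997 and 14.1 in W1, 10.2 and 9.43 in W2, and 1.61 and 4.67 in W6. All 8 libraries were in falling order (fitted change −2.98 ± 0.37, adjusted p = 0.00267, 0.0202 without D0 replicate 2). Of 32 heat shock genes *Cryab* rose (slope 1.12) and *Hspb1* and *Hspb8* fell (−0.62 and −0.74, adjusted p = 0.00388 to 0.205 by limma for the 3 genes without D0 replicate 2), shares of 3.12% and 6.25%. Of 13 regulators of the epithelial to mesenchymal transition and invasion *Cd200* rose (slope 0.89, adjusted p = 0.00561, 0.0144 without D0 replicate 2), a share of 7.69%. Of 13 imprinted or postnatally declining genes *Phlda2* and *Snrpn* rose and *Gpc3* and *Plagl1* fell (slopes 0.81, 0.87, −1.06 and −0.48, adjusted p = 0.0141 to 0.113 without D0 replicate 2), shares of 15.4% each. Of 9 IGF-binding protein and receptor genes 3 departed from a straight trend, *Igfbp3* among them, and at most 2 with any W1 or W2 library left out. Summed marker levels ran over 0.134 to 0.826 TPM for Merkel cells, 61.3 to 363 TPM for hair shaft and inner root sheath, and 20.8 to 31.1 TPM for muscle, fat and blood, with 2 of the last 12 markers at 0 in all 8 libraries.

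The 2 libraries of grafted skin at W12 entered no test, and grafting and time cannot be told apart in them. At W12 *Gpx2* was listed at 817 and 650.2 TPM, *Igfl3* at 92.2 and 71.1 TPM and *Klk6* at 134 and 189 TPM. Among the falling genes *Bmp4* was listed at 8.35 and 8.15 TPM, *Cxcl14* at 47.6 and 49.2 TPM and *Krt15* at 322 and 242 TPM. *Krt6a* was listed at 4564 and 5379.8 TPM, and the transgene MYC-SOX9 at 606 and 903 TPM.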
